A study of Mus musculus with 2 samples.

Results

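The clustered histone genes of the mouse are the genes whose symbols begin with Hist1h, Hist2h, Hist3h or Hist4h, and they encode the linker histone H1 and the core histones H2A, H2B, H3 and H4. Of the 27998 genes listed in the data, 69 carry such a symbol, under 68 distinct symbols because Hist2h2bb is listed as 2 gene models. At least 1 unique molecular identifier (UMI, the tag that marks 1 captured RNA molecule) was counted for 61 of them, and 8 had none: Hist1h2aa, Hist1h2ad, Hist1h2ba, Hist1h2bq, Hist1h2br, Hist1h3h, Hist2h2aa2 and Hist2h3c1. Together the members took 15255 UMIs, 9059 in the KO library and 6196 in the WT library. By family, 6 members are H1 genes, 19 are H2A genes, 19 are H2B genes, 12 are H3 genes and 13 are H4 genes. By locus, 55 belong to the Hist1 cluster on chromosome 13, 11 to the Hist2 cluster on chromosome 3, 2 to the Hist3 locus on chromosome 11 and 1, Hist4h4, to chromosome 6.

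Histone proteins package DNA into nucleosomes, and a cell that copies its genome needs new histones while it does so. The clustered genes supply most of them: their transcription and the stability of their mRNA are high during S phase and drop when DNA synthesis ends. Their mRNAs mostly end in a short stem-loop bound by SLBP instead of a poly(A) tail, but some of the genes also give a longer, polyadenylated mRNA, including in cells that do not divide. Replacement histones such as H3.3 and H2A.Z come from single genes outside the clusters, with ordinary polyadenylated mRNA.

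The data came from immune cells of B16Ova melanomas, a B16 line that carries the model antigen ovalbumin, grown in the flanks of female mice and harvested on day 13. KO mice were E8i-cre+, Tcf7 FL/FL and WT mice were E8i-cre-, Tcf7 FL/FL, so both groups carry the floxed allele of Tcf7, the gene of the T cell transcription factor TCF-1. E8i-cre expresses the Cre recombinase from a Cd8a enhancer that acts in mature CD8 T cells. In each group 3 tumors were used, 2000 cells of each of 4 sorted categories (CD8 and CD4 T cells, a gate for dendritic cells, and the remaining CD45+ cells) were taken from each tumor and mixed, and 7000 cells were loaded on a droplet channel. Each group is therefore 1 library, no test between KO and WT is possible, and the 95% intervals below cover counting error only, while the spread between cells is larger.

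The KO library held 1219 barcodes with 11758449 UMIs and the WT library 1120 barcodes with 9283014 UMIs, with 1 barcode sequence in common; 1086 KO and 988 WT cells passed the filters, with medians of 8243 and 6179 UMIs. Cells were gated into classes by fixed marker genes, and a cell with at least 1 UMI of Mki67 plus Top2a, a proliferation antigen and a topoisomerase of dividing cells, counts as cycling. Tcf7 itself stood at 56.5 CPM (UMIs per 1000000 UMIs) in KO and 158 CPM in WT CD8 T cells, a ratio of 0.357 (0.280 to 0.453), and at 84.0 CPM in KO and 115 CPM in WT CD4 T cells. The sources used here do not give which part of Tcf7 the floxed allele removes, so the counts need not measure the deletion.

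The 3′ ends of the genes are shown first, because droplet methods usually capture RNA by its poly(A) tail and because the counts below split by them. The 16-base stem-loop is in capitals with 5 bases before and 3 after it, 5′ to 3′ on the gene's strand, from the GENCODE vM21 transcripts on mm10, and all of these sites lie downstream of the stop codon.
Hist1h2ap (chr13:21833026-21833049, minus strand): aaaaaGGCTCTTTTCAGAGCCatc
Hist1h2ab (chr13:23751567-23751590, plus strand): acaaaGGCTCTTTTCAGAGCCacc
Hist1h2ae (chr13:23570665-23570688, minus strand): acaaaGGCTCTTTTCAGAGCCatt
Hist1h1c (chr13:23739507-23739530, plus strand): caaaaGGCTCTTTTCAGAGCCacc
Hist1h1e (chr13:23621779-23621802, minus strand): ccaaaGGCTCTTTTCAGAGCCacc
Hist1h3e (chr13:23561900-23561923, minus strand): aaaacGGCTCTTTTAAGAGCCacc
Hist1h4d (chr13:23581945-23581968, plus strand): ccaaaGGCCCTTTTCAGGGCCact
Hist3h2ba (chr11:58949344-58949367, plus strand): ccaaaGGCTCTTTTCAGAGCCacc

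The stem-loop barely varied between members that behaved differently in the counts: Hist1h2ap and Hist1h1c carry the same 16 bases. The length of annotated transcript after it varied more. It is 3 bases in Hist1h2ap and 11 bases in Hist1h2ab, against 151 bases in Hist1h2ae, 169 in Hist3h2ba, 369 in Hist1h3e, 770 in Hist1h4d, 840 in Hist1h1c and 1153 in Hist1h1e. Length did not sort every member by its counts, given below. Hist1h2ae and Hist1h1d, with 4884 bases, separated strongly between cycling and other T cells, and Hist1h4h, with 46 bases, did so less. Of the 67 members matched by ID, 44 hold the pattern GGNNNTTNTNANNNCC, searched on the transcript strand, and 3.89% of the 58797 coding transcripts of the annotation hold it. The most common form, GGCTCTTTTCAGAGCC, stands in 24 members, and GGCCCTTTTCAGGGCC in 7. The stem-loop lies within 100 bases of the annotated end in 22 members and farther from it in 22. The other 23 matched members have no match in their annotated transcripts, 11 of which end at the stop codon. Among the 22 long-tailed members 13 hold the letters AATAAA, the core polyadenylation signal, after the stem-loop, and none of the 22 short-tailed members do. The stretch searched is longer in long-tailed members by definition, so a match is likelier there by length alone. No rate at matched length was computed.

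The clustered histone genes were several times higher in cycling than in other cells of each T cell class with at least 10 cycling cells in both libraries. In CD8 T cells, the class in which E8i-cre acts, the members summed to 1959 CPM in KO cycling cells (65 cells), against 231 CPM in KO other cells (114 cells), a ratio of 8.46 (7.23 to 9.97). In WT CD8 T cells the sum was 1918 CPM in cycling cells (43 cells), against 205 CPM in other cells (129 cells), a ratio of 9.38 (7.82 to 11.3). Weighting each cell equally makes both ratios smaller: at 2000 UMIs per cell the means were 3.37 histone UMIs in cycling and 0.495 in other KO CD8 T cells, and 2.57 in cycling and 0.433 in other WT CD8 T cells. Cycling cells were also deeper, with a median of 18977 UMIs against 4720 in other KO CD8 T cells and 11117 against 4335 in the WT cells.

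By summed CPM, CD4 T cells showed the same separation at higher cycling levels. The sum was 2447 CPM in KO cycling CD4 T cells (43 cells) against 222 CPM in the other KO cells (141 cells), a ratio of 11.0 (9.40 to 13.1), and 3028 CPM in WT cycling cells (34 cells) against 260 CPM in the other WT cells (144 cells), a ratio of 11.6 (10.0 to 13.6). Foxp3-positive regulatory T cells had 2778 CPM in KO cycling cells (15 cells) against 189 CPM in KO other cells (20 cells), and 2167 CPM in WT cycling cells (22 cells) against 297 CPM in WT other cells (42 cells). Foxp3-negative, conventional CD4 T cells had 2276 CPM in KO cycling cells (28 cells) against 228 CPM in KO other cells (121 cells), and 5140 CPM in WT cycling cells (12 cells) against 234 CPM in WT other cells (102 cells). Without the top cell of each group, cycling conventional cells had 1990 CPM in KO and 3215 CPM in WT, and cycling regulatory T cells 1600 and 1626 CPM. The median histone count per cycling cell was 6 UMIs in KO and 3 in WT CD4 T cells, against 9 and 3 in CD8 T cells.

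Among CD8 T cells, those with Gzmb or Prf1, the genes of granzyme B and perforin, had 1957 CPM in KO cycling cells against 235 CPM in KO other cells, a ratio of 8.31, and 2066 CPM in WT cycling cells against 209 CPM in WT other cells, a ratio of 9.87. CD8 T cells with Gzmk and without Gzmb or Prf1 held 1 cycling cell in KO and 3 in WT, too few to describe. T cells with neither co-receptor detected had 2062 CPM in KO cycling against 210 CPM in KO other cells, and 1914 CPM in WT cycling against 269 CPM in WT other cells. Non-cycling cells of the CD4 subsets, of the CD8 T cells with Gzmb or Prf1 and of the T cells with neither co-receptor thus lay between 189 and 297 CPM.

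In type 1 dendritic cells (cDC1s, which present antigen of dead cells to CD8 T cells) the gates set at the start left 23 KO and 25 WT cells, since many cDC1s also met the monocyte gate through Plac8. There the sum was 1128 CPM in 8 KO cycling cells against 202 CPM in 15 KO other cells, a ratio of 5.59 (3.902 to 8.18), and 914 CPM in 4 WT cycling cells against 153 CPM in 21 WT other cells, a ratio of 5.96 (3.44 to 10.1). Without the top cell of each group the WT value was 381 CPM in 3 cells and the WT ratio 2.88 (1.21 to 6.15), while the KO ratio was 4.90. Letting the monocyte gate yield to the dendritic cell gates, a choice made after seeing the data, gave 139 KO and 128 WT cDC1s and left the T cell gates as they were. These cDC1s had 1287 CPM in KO cycling cells (36 cells) against 167 CPM in KO other cells (103 cells), a ratio of 7.72 (6.73 to 8.88), and 1116 CPM in WT cycling cells (28 cells) against 197 CPM in WT other cells (100 cells), a ratio of 5.66 (4.91 to 6.54). All later cDC1 values use this wider gate.

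Other myeloid classes held few cycling cells. Type 2 dendritic cells had 969 CPM in 10 KO cycling cells against 163 CPM in KO other cells, and 1293 CPM in 3 WT cycling cells against 180 CPM in WT other cells. Without the cell of most histone UMIs in each group these were 622 CPM against 152 CPM in KO, a ratio of 4.08. In WT they were 259 CPM in 2 cells against 167 CPM, a ratio of 1.55 (0.604 to 3.33). Monocytes had 990 CPM in 8 KO cycling cells against 148 CPM in KO other cells, a ratio of 6.70, and 1058 CPM in 5 WT cycling cells against 231 CPM in WT other cells, a ratio of 4.57. Without the cell of most histone UMIs in each group the monocyte ratios were 2.70 in KO and 1.53 in WT, so 1 cell set much of each. Mature Ccr7-type dendritic cells, gated by Fscn1, Ccl22 and Cacnb3, had 122 CPM in 64 non-cycling KO cells and 181 CPM in 88 non-cycling WT cells.

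**Figure D1:**
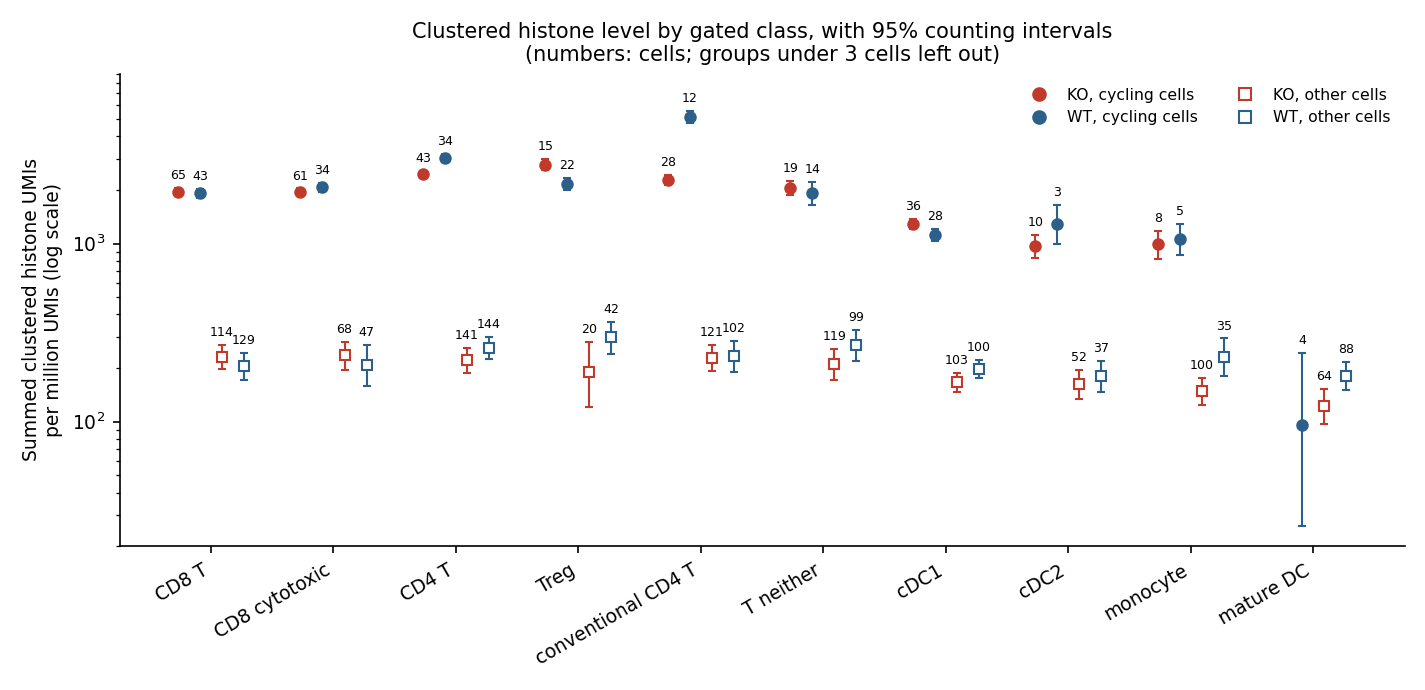
Summed clustered histone UMIs as CPM (log axis) in each gated class, for KO (red) and WT (blue), cycling cells as filled circles and other cells as open squares; bars are 95% counting intervals and numbers are cells. Cycling T cells lie between 1914 and 5140 CPM and the other T cells drawn between 189 and 297 CPM; cDC1s and monocytes are drawn with the wider cDC1 gate.

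Because cycling cells carry more RNA, their share of all UMIs is large too, and the histone share has to be read against it. In CD8 T cells 36.3% of KO cells (29.3 to 43.8) and 25% of WT cells (18.7 to 32.2) were cycling. Those cells held 63.0% of all UMIs of the KO class and 48.1% of the WT class, and 93.5% and 89.7% of the histone UMIs. In CD4 T cells cycling cells held 91.8% of the histone UMIs in KO and 87.0% in WT, and in cDC1s 80.05% in KO and 66.5% in WT. These shares are close to all of the T cell signal and a smaller part of the cDC1 signal.

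Within the cycling gate the histone UMIs sat in a minority of cells. In KO cycling CD8 T cells the count per cell ran from 0 to 256 with a median of 9, and 18 of the 65 cells had at least 50 and held 82.4% of the histone UMIs. In WT cycling CD8 T cells it ran from 0 to 199 with a median of 3, and 8 of the 43 cells had at least 50 and held 82.6%. No histone UMI was found in 5 of the 65 KO and 12 of the 43 WT cycling CD8 T cells. Over all kept cells, 55 KO and 30 WT cells had at least 50 histone UMIs, every 1 of them in the cycling gate, and they held 69.8% of the KO and 62.8% of the WT histone UMIs. The highest non-cycling cell had 20 UMIs in KO and 32 in WT.

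**Figure D2:**
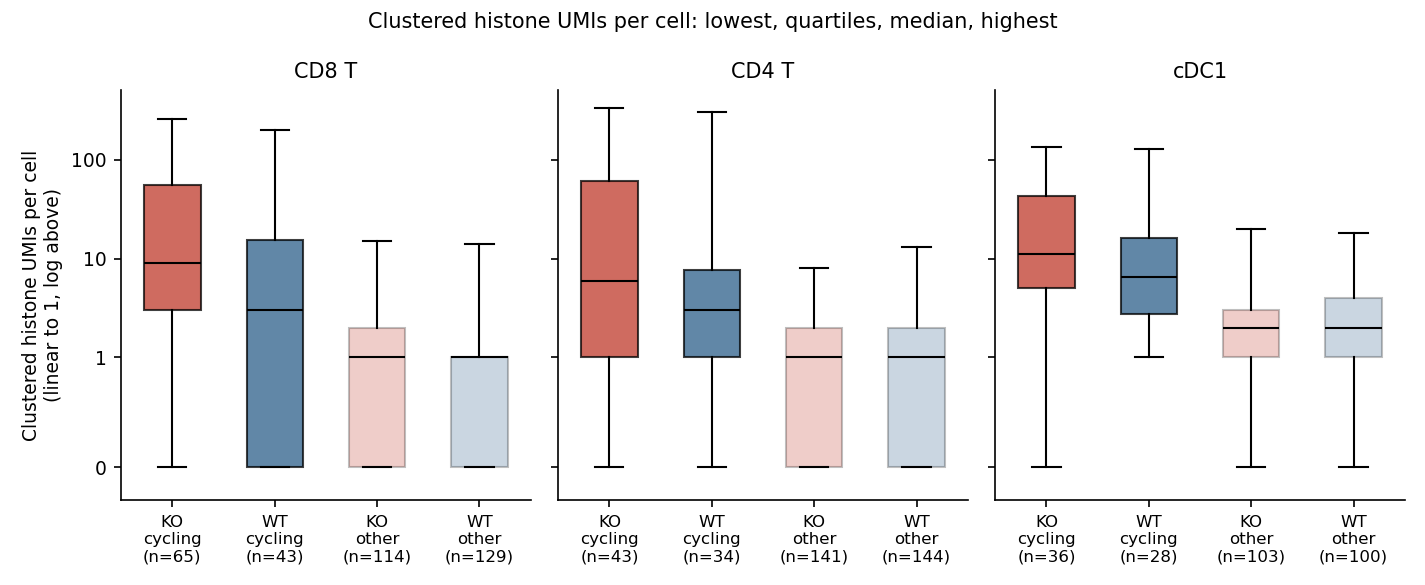
Clustered histone UMIs per cell (axis linear to 1, log above) in cycling and other CD8 T cells, CD4 T cells and cDC1s of KO and WT; boxes span the quartiles, the line is the median and whiskers reach the lowest and highest cell. Medians of cycling cells lie between 3 and 11 UMIs with highest cells between 128 and 332, while the highest other cell has 20.

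With each cell thinned to 2000 UMIs, a histone UMI was found in 63.1% of KO cycling CD8 T cells (50.2 to 74.7; 92.3% unthinned) and in 36.7% of KO other CD8 T cells (58.8% unthinned; 5 cells were too shallow). In WT the shares were 52.4% of cycling cells (36.4 to 68.0; 72.1% unthinned; 1 cell too shallow) and 32.5% of other cells (52.7% unthinned; 9 too shallow). No class lacks histone genes, so no class gives a clean background. Mature dendritic cells, which hardly divide, had 26.7% in KO and 23.5% in WT non-cycling cells (median depths 9454 and 7660 UMIs). The non-cycling CD8 T cell shares lay somewhat above these, with overlapping intervals. Those of T cells with neither co-receptor were 30.7% in KO and 44.9% in WT (34.4 to 55.9). Free RNA in the droplets was not tested as a part of them.

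Counted gene by gene over all T cells, 34 members in KO and 29 in WT had at least 30 UMIs, the limit for a fold. At least 2-fold higher in cycling cells were 32 of the 34 in KO, against 8.99% of all genes, and 27 of the 29 in WT, against 6.63% of all genes; none was 2-fold lower in either (8.41% of all genes in KO and 4.96% in WT). In CD8 T cells it was 18 of 19 in KO (10.5% of all genes) and 8 of 9 in WT (10.8%), in CD4 T cells 13 of 14 in KO (9.68%) and 15 of 16 in WT (5.38%), and in cDC1s 11 of 11 in KO (6.3%) and 5 of 6 in WT (5.72%). A member can pass the 30-UMI limit through its cycling cells alone, so these counts favour members that are high there. Of the members past that limit that also had at least 15 UMIs in the other T cells, 7 of 9 in KO and 8 of 10 in WT were 2-fold higher. This count still depends in part on the cycling cells, and its share over all genes was not computed.

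The linker histone genes differed widely among themselves. Hist1h1b, the H1.5 gene (chr13:21779883-21780625), had 229 CPM in KO and 192 CPM in WT cycling T cells, against 6.997 CPM in KO and 3.23 CPM in WT other T cells, ratios of 32.7 (19.4 to 60.3) and 59.5 (26.9 to 164). Hist1h1a, the H1.1 gene, had 30.04 CPM in KO and 26.2 CPM in WT cycling T cells, with 0 UMIs in KO other T cells, at least 20.04-fold higher against the limit of 3 UMIs over that group, and a ratio of 48.7 in WT. Hist1h1d, the H1.3 gene, had ratios of 18.8 in KO and 35.7 in WT. Hist1h1e, the H1.4 gene (chr13:23620629-23622558), stayed easily detected outside the cycle, with 229 CPM in KO and 199 CPM in WT cycling T cells against 53.0 CPM in KO and 43.0 CPM in WT other T cells, ratios of 4.32 (3.51 to 5.38) and 4.63 (3.59 to 6.03). None of the 60-base words in its last 300 bases is unique to it and its exons overlap those of Hist1h2be, so its reads may not all be its own.

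Hist1h1c, the H1.2 gene (chr13:23738808-23740367), followed the cycle only weakly in T cells. It had 35.5 CPM in KO and 41.2 CPM in WT cycling T cells, against 23.0 CPM in KO and 32.8 CPM in WT other T cells, ratios of 1.54 (1.07 to 2.26) and 1.26 (0.852 to 1.85). Over all kept cells 53.4% of its UMIs in KO and 32.5% in WT came from cycling cells, against 95.2% and 94.9% for Hist1h1b. Cycling cells held 37.6% of all UMIs in KO and 31.0% in WT. In KO cDC1s, where every member tested was at least 2-fold higher in cycling cells, Hist1h1c was too. In WT cDC1s Hist1h1c stayed under 2-fold, on 29 UMIs in the cycling cells. Hist1h1c and Hist3h2ba were the members with at least 30 UMIs in both libraries' T cells that stayed under 2-fold in both.

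The start regions of the linker genes at both ends of this range are shown because transcription of the family is set there. They are the 250 bases before the RefSeq start on GRCm38.p6, with the TATA box letters TATAAA, with CCAAT or its reverse complement, and with AAACACA in capitals.
Hist1h1b (chr13:21780626-21780875, minus strand): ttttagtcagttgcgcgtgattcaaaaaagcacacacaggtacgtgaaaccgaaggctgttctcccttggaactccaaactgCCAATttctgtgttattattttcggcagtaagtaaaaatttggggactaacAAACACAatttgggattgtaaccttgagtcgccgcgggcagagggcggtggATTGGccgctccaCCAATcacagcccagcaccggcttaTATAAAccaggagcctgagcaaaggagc
Hist1h1c (chr13:23738557-23738806, plus strand): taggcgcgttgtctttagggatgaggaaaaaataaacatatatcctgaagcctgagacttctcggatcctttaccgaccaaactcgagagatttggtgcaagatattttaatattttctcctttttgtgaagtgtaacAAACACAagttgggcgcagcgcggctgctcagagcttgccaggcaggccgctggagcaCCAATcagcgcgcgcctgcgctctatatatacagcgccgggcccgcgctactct

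Both hold AAACACA, at -117 in Hist1h1b and -112 in Hist1h1c, counted to its first base, and a CCAAT at -53 in Hist1h1b and -54 in Hist1h1c. TATAAA is found in Hist1h1b, at -28, and these exact letters are not in the Hist1h1c window. That window does hold TATATATA close to its end, a run that was not searched. The lack of TATAAA is therefore not a lack of any TATA-like run. Of the 60 members matched to a RefSeq promoter, 48.3% hold TATAAA against 13.0% of all 27025 promoters, 81.7% hold CCAAT against 34.5%, and 15% hold AAACACA against 6.22%, each searched on both strands. CCAAT stands in 100% of the H1, H2A and H2B promoters, 80% of the H3 promoters and 25% of the H4 promoters, and AAACACA in 5 of 6 H1 promoters. A match is a run of letters and not a measured site.

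Summed by family, H2A genes gave the most UMIs and the largest separation, though Hist1h2bm in KO and Hist1h3g in WT separated more than Hist1h2ap. Hist1h2ap (chr13:21833026-21833507) had 451.5 CPM in KO and 544.8 CPM in WT cycling T cells, against 9.495 CPM in KO and 8.60 CPM in WT other T cells, ratios of 47.5 (30.3 to 79.3) and 63.3 (38.7 to 111). Hist1h2ae (chr13:23570517-23571220) had 242 CPM in KO and 286 CPM in WT cycling T cells, against 8.496 CPM in KO and 9.68 CPM in WT other T cells, ratios of 28.4 and 29.6. Hist1h2ab had 72.2 CPM in KO and 90.4 CPM in WT cycling T cells, against 1.999 CPM in KO and 0.538 CPM in WT other T cells, the WT value resting on 1 UMI. Hist1h2ak had ratios of 18.6 in KO and 61.2 in WT and Hist1h2ai of 31.3 and 12.1, while the long-tailed Hist1h2ac had 6.61 and 5.00 and Hist2h2ac 9.85 and 5.77. The H2A genes are near copies of each other: none of the 60-base words in the last 300 bases of Hist1h2ap is unique to it, and reads of near copies can be counted for another member or left out, so counts of single H2A genes are less certain than their sum.

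Among H2B genes, Hist1h2bj had 85.5 CPM in KO and 66.6 CPM in WT cycling T cells, against 7.996 CPM in KO and 2.15 CPM in WT other T cells, ratios of 10.7 and 31.0. Hist1h2bm had ratios of 50.1 in KO and 24.3 in WT, Hist1h2bn of 12.5 and 33.9, and Hist1h2bc of 3.76 and 6.64. Hist1h2bb had 0 UMIs in KO other T cells and was at least 19.5-fold higher in the cycling cells, with a ratio of 31.0 in WT. Hist3h2ba, at the Hist3 locus, did not separate: it had 10.4 CPM in KO and 11.9 CPM in WT cycling T cells, against 11.99 CPM in KO and 9.68 CPM in WT other T cells, ratios of 0.870 (0.477 to 1.59) and 1.23 (0.577 to 2.58). The coding model of Hist2h2bb (chr3:96269752-96270132) had ratios of 20.1 in KO and 7.59 in WT, and a long noncoding model listed under the same symbol overlaps it, so the counts of both are uncertain.

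Among the H3 and H4 genes, Hist1h3e had 90.6 CPM in KO and 137 CPM in WT cycling T cells, against 11.0 CPM in KO and 15.1 CPM in WT other T cells, ratios of 8.24 and 9.11, with no 60-base word of its own. Hist1h3f had ratios of 5.26 in KO and 11.1 in WT, Hist1h3a of 8.35 and 17.0, Hist1h3g of 20.04 and 64.9, and Hist1h3i of 28.4 and 33.2. Hist1h4d had 83.5 CPM in KO and 65.8 CPM in WT cycling T cells, against 11.0 CPM in KO and 19.4 CPM in WT other T cells, ratios of 7.59 and 3.40. Hist1h4i had 3.32 and 3.65, Hist2h4 3.82 and 5.90, Hist1h4h 4.08 and 3.93, Hist1h4c 2.35 and 2.56, and Hist1h4k 15.2 and 5.16. Below the 30 members with most UMIs, Hist4h4 had ratios of 1.58 in KO (0.665 to 4.02) and 0.820 in WT (0.216 to 2.72), while Hist3h2a had no UMI in cycling T cells of either library.

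**Figure D3:**
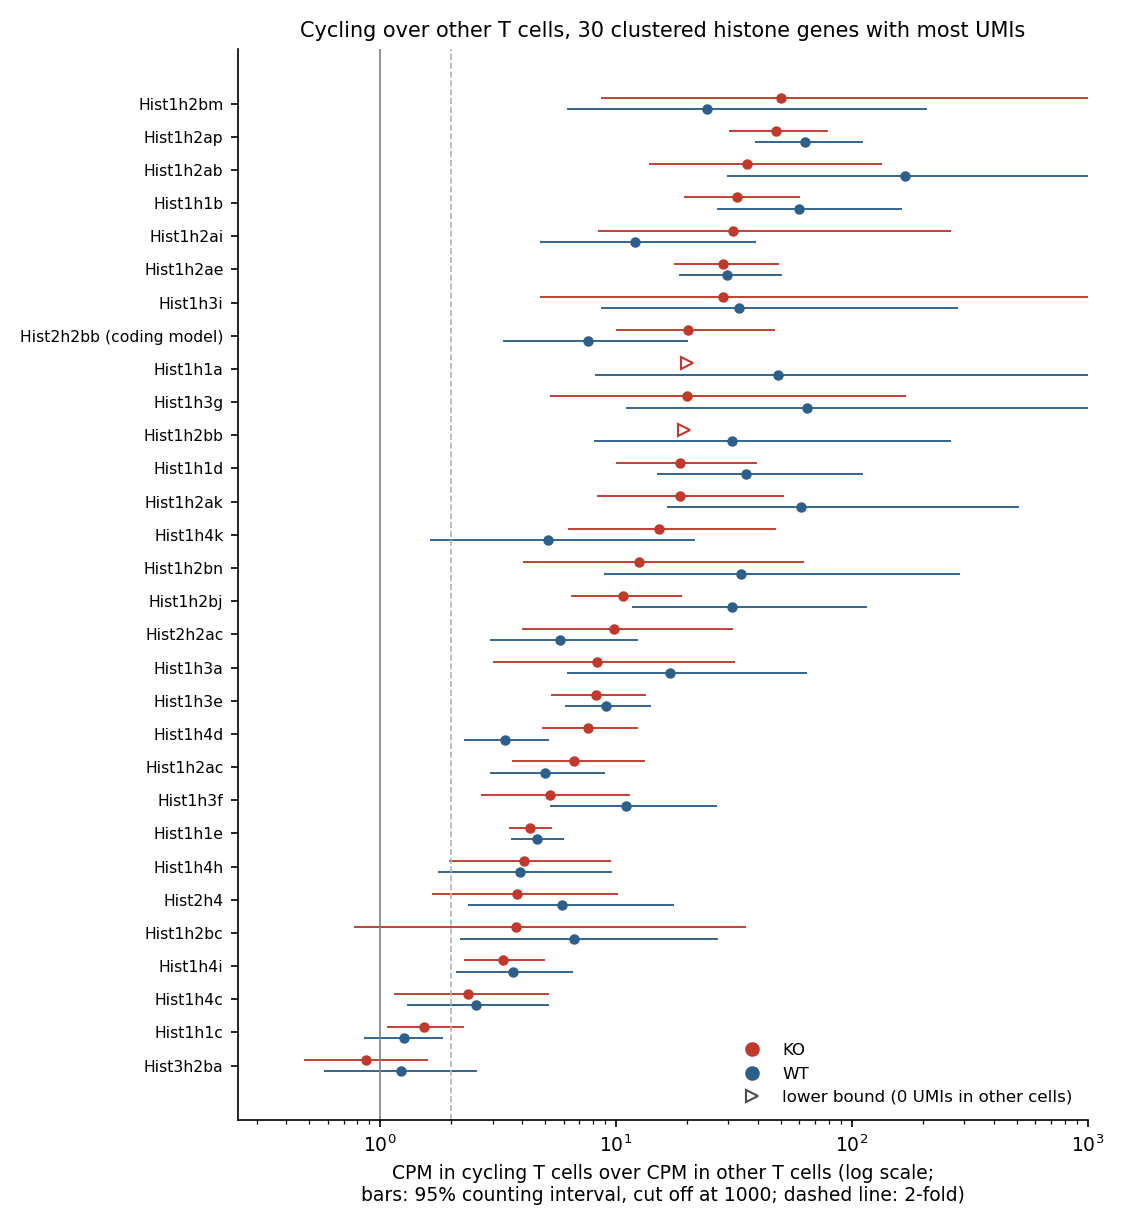
Level in cycling T cells over level in other T cells (log axis) for the 30 clustered histone genes with most UMIs, KO in red and WT in blue, bars for the 95% counting interval, open triangles for lower bounds and a dashed line at 2-fold. Hist1h2ap stands at 47.5 and 63.3, Hist1h1e at 4.32 and 4.63, and Hist1h1c and Hist3h2ba lie under 2 in both libraries.

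Summed by family over all T cells, the ratio of cycling to other cells was 26.5 in KO and 26.9 in WT for H2A, 9.55 and 7.96 for H2B, 8.98 and 14.2 for H3, 7.02 and 6.74 for H1, and 4.91 and 3.50 for H4. The make-up of the histone UMIs shifted accordingly. H2A took 40.5% of them in KO and 45.3% in WT cycling T cells, against 15.5% in KO and 17.6% in WT other T cells. H1 took 26.2% in KO and 22.0% in WT cycling T cells, against 37.8% in KO and 34.2% in WT other T cells, and H4 10.7% and 7.77% against 22.2% and 23.2%. The 2 Hist3 members gave 0.443% in KO and 0.472% in WT cycling T cells, against 6.02% in KO and 4.69% in WT other T cells. These are shares of captured UMIs and are not scaled to transcript length.

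**Figure D4:**
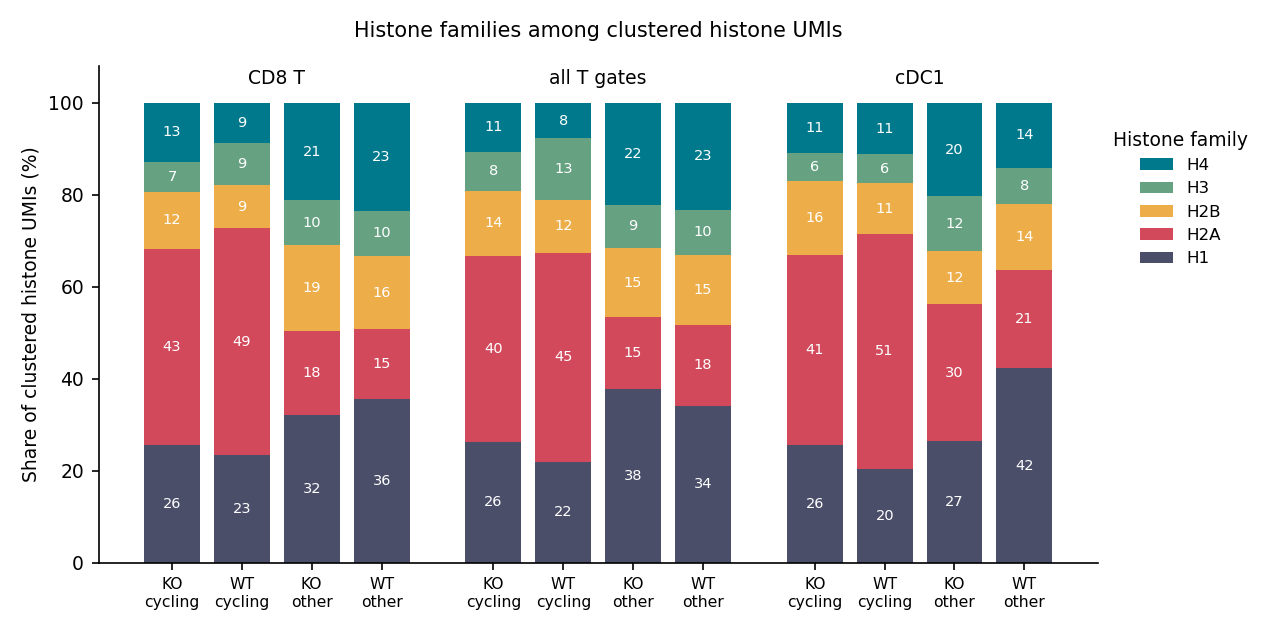
Share of clustered histone UMIs (%) from each histone family in cycling and other cells of KO and WT, for CD8 T cells, all T cells and cDC1s. H2A makes up 40.5% and 45.3% of the UMIs in cycling T cells, against 15.5% and 17.6% in other T cells.

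Summed by the tail length shown with the stem-loops, short-tailed members separated more than long-tailed ones. This grouping, and its limit of 100 bases, were chosen after seeing the data. The 22 members with the stem-loop within 100 bases of the annotated end summed to 774 CPM in KO cycling T cells against 34.5 CPM in KO other T cells, a ratio of 22.4 (17.6 to 29.0), and to 919 CPM in WT cycling against 30.6 CPM in WT other T cells, a ratio of 29.996 (23.0 to 39.9). The 22 members with a longer tail summed to 976 CPM in KO cycling against 169 CPM in KO other T cells, a ratio of 5.76 (5.14 to 6.48), and to 1055 CPM in WT cycling against 183 CPM in WT other T cells, a ratio of 5.78. The 23 members with no stem-loop in their annotated transcript had 20.7 in both libraries. Hist1h2ap alone gave 1082 of the 1854 short-tailed UMIs of KO and 687 of the 1159 of WT cycling T cells. Without it the short-tailed ratio was 12.9 (9.68 to 17.5) in KO and 16.98 (12.3 to 24.0) in WT. Single members crossed the split: the long-tailed Hist1h2ae and Hist1h1d separated strongly, and the short-tailed Hist1h4h and Hist2h2ac did not, by the ratios given with each. Long-tailed members thus gave 72.9% of the histone UMIs of KO and 75.9% of WT other T cells, against 41.4% of KO and 41.9% of WT cycling T cells. Sequence uniqueness moved with tail length: the median share of 60-base words in the last 300 bases found in no other annotated gene was 35.3% in the short-tailed, 100% in the long-tailed and 33.2% in the remaining members, and its part in this split was not tested.

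Whether histone level follows the part of the cycle was described with an S list (such as Pcna and Mcm5) and a G2/M list (such as Ccnb1 and Cenpf), neither of which holds a histone gene. Cycling cells with more S-list than G2/M-list UMIs are called S-leaning. In T cells and cDC1s the S-leaning cells were lower in summed histone level, with all cells counted. Monocytes held too few cycling cells to compare. In KO monocytes 4 S-leaning cells had 1358 CPM against 608 CPM in 3 G2/M-leaning cells, the other direction. In CD8 T cells S-leaning cells had 1753 CPM in KO (46 cells) against 2648 CPM in KO G2/M-leaning cells (16 cells), a ratio of 0.662, and 1886 CPM in WT (36 cells) against 2532 CPM in WT G2/M-leaning cells (5 cells), a ratio of 0.745. Without the top cell of each group the WT CD8 log2 ratio turned to 1.62, against -0.42 with all cells, so the WT direction rests on 1 of the 5 cells.

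In CD4 T cells S-leaning cells had 1958 CPM in KO (32 cells) against 3742 CPM in KO G2/M-leaning cells (9 cells), and 2636 CPM in WT (22 cells) against 4182 CPM in WT G2/M-leaning cells (9 cells). In cDC1s they had 942 CPM in KO (24 cells) against 2189 CPM in KO G2/M-leaning cells (12 cells), and 881 CPM in WT (18 cells) against 1579 CPM in WT G2/M-leaning cells (10 cells). A lean is a comparison of 2 sums of UMIs and not a phase: cells late in S phase carry genes of both lists.

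**Figure D5:**
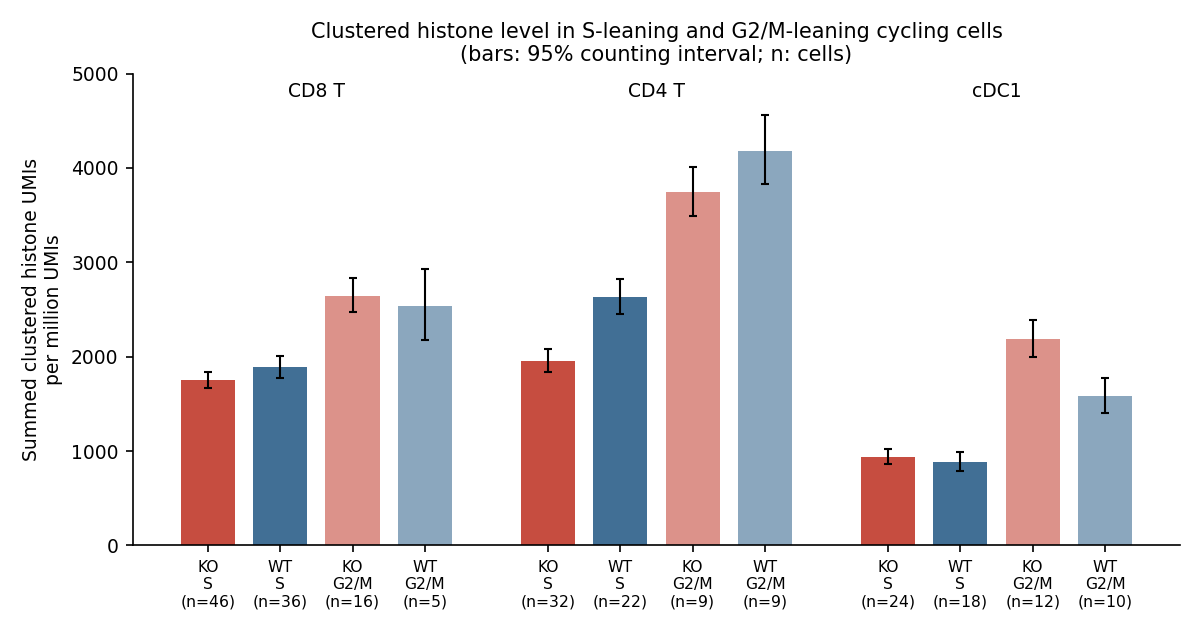
Summed clustered histone UMIs as CPM in S-leaning and G2/M-leaning cycling cells of KO and WT, for CD8 T cells, CD4 T cells and cDC1s; bars show 95% counting intervals and n is the number of cells. S-leaning cells lie between 881 and 2636 CPM and G2/M-leaning cells between 1579 and 4182 CPM.

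Gene by gene over all T cells, 26 of 33 members with at least 30 UMIs in KO and 23 of 24 in WT had a ratio under 1 in S-leaning cells. The counting interval lay below 1 for 20 members in KO and 16 in WT, and above 1 for 2 in KO and 0 in WT. The share of all genes lower in S-leaning cells was not computed, so these counts have no background beside them. Hist1h2ap had S over G2/M ratios of 0.564 in KO and 0.633 in WT, Hist1h3e 0.386 and 0.299, Hist1h2bb 0.207 and 0.182, and Hist1h2ak 0.268 and 0.196. Hist1h1d stood above 1 in both, at 1.35 in KO and 1.10 in WT. Hist1h1a was 2.78 in KO (1.37 to 6.35) and 0.728 in WT (0.339 to 1.66), and Hist1h4h was 3.97 in KO (1.43 to 15.3). Hist1h1b was 0.616 in KO and 0.971 in WT, so the linker genes did not lean together.

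Between genotypes, the summed level in CD8 T cells was 1320 CPM in KO against 1029 CPM in WT, a ratio of 1.28 (1.20 to 1.37). Split by the cycle the gap was smaller: cycling cells gave a ratio of 1.02 (0.951 to 1.10) and other cells of 1.13 (0.894 to 1.43), while 36.3% of KO and 25% of WT CD8 T cells were cycling. In CD8 T cells with Gzmb or Prf1 the ratio was 1.003 (0.935 to 1.077) over all cells, with 47.3% of KO and 42.0% of WT cells cycling. These shares of cycling cells were not matched for depth. A deeper cell passes the gate of 1 UMI more easily, and the median depth of kept cells was 8243 UMIs in KO and 6179 in WT. Counted per cell instead of as CPM the log2 difference of all CD8 T cells was 0.93. In cycling CD8 T cells too the ratio depended on the count. Its log2 value was 0.39 by the mean of per-cell CPM and 0.46 per cell. Thinned to 2000 UMIs with the gate kept as it was, these cells had 3.37 histone UMIs per cell in KO against 2.57 in WT. Markers of antigen-presenting cells (the MHC class II genes H2-Aa, H2-Ab1, H2-Eb1 and Cd74, with Lyz2 and C1qa to C1qc) summed to 368 CPM in KO against 2434 CPM in WT cycling CD8 T cells, and their part in the ratios was not tested.

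Of the 27 members with at least 30 UMIs in CD8 T cells, 14 were at least 1.5-fold higher in KO (9.85% of all genes) and 0 lower (8.85%). In cycling CD8 T cells 7 of 24 were higher (9.5%) and 1, Hist1h3f at 0.558, was lower (7.96%). For Hist1h3f 12 of the 15 WT UMIs came from 1 cell. Without the top cells its ratio was 2.22 (0.620 to 12.1), the other direction. Hist1h4k led the 7, with 51.0 CPM in KO against 15.04 CPM in WT, a ratio of 3.39 (1.68 to 7.77). In it 33 of 62 KO UMIs came from 1 cell, and without the top cells the ratio was 1.98 (0.848 to 5.35). The coding model of Hist2h2bb had 38.7 CPM in KO against 16.7 CPM in WT, a ratio of 2.32, which was 1.92 (0.814 to 5.21) without them. The others were Hist1h2ai at 2.18, Hist1h4h at 1.68, Hist1h2bh at 1.66, Hist1h4i at 1.53 and Hist1h2ab at 1.501. Without the top cells Hist1h2bh was at 0.895 (0.332 to 2.65), with 14 of 27 KO UMIs in 1 cell. Hist1h4h was at 1.22 (0.488 to 3.47), with 16 of 34 KO UMIs in 1 cell. The members with most UMIs moved less: Hist1h2ap had a ratio of 0.808 (0.701 to 0.933), Hist1h2ae of 0.836 (0.679 to 1.03), Hist1h1b of 1.02 and Hist1h1e of 1.19. By family H2A stood at 0.883 (0.796 to 0.980) and H3 at 0.737 (0.572 to 0.953), against 1.33 (1.07 to 1.68) for H2B and 1.51 (1.20 to 1.91) for H4.

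In CD4 T cells, where the E8i enhancer is not known to act, the ratio was 1.06 (0.988 to 1.13) over all cells and 0.808 (0.752 to 0.868) in cycling cells. The direction in cycling cells depended on the count. Per cell the log2 ratio was 0.15. With cells thinned to 2000 UMIs before the cycling gate, which fewer cells then pass, it was 0.18. With the gate kept as it was, thinned cycling CD4 T cells had 3.49 histone UMIs per cell in KO against 3.64 in WT. Of 21 members 2 were at least 1.5-fold higher in KO cycling cells (11.6% of all genes) and 8 lower (12.8%). Hist1h2ap had 473 CPM in KO against 648 CPM in WT, a ratio of 0.730 (0.622 to 0.857), which was 0.722 without the top cells. Hist1h1d had 65.8 CPM in KO against 165.5 CPM in WT, a ratio of 0.398, but 52 of its 71 WT UMIs came from 1 cell and the ratio without the top cells was 0.947 (0.521 to 1.77). The coding model of Hist2h2bb had 144 CPM in KO against 42.0 CPM in WT, a ratio of 3.43, with 88 of 107 KO UMIs in 1 cell and 1.12 (0.494 to 2.69) without them. Hist1h2ac, at 21.5 CPM in KO against 65.3 CPM in WT, kept a ratio of 0.338 (0.157 to 0.696) without them.

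In cDC1s, which E8i-cre is not known to target, the ratio was 1.26 (1.16 to 1.38) over all cells, 1.15 (1.04 to 1.28) in cycling cells and 0.845 (0.712 to 1.003) in other cells. Of 14 members 6 were at least 1.5-fold higher in KO cycling cDC1s (7.2% of all genes) and 1 lower (9.56%). Hist1h1b had 149 CPM in KO against 73.4 CPM in WT, a ratio of 2.03 (1.40 to 3.01), and 2.15 (1.40 to 3.41) without the top cells. Hist1h1e had 109 CPM in KO against 61.8 CPM in WT, a ratio of 1.76 (1.16 to 2.72), and 1.68 (1.06 to 2.74) without them. Hist1h2bn had 39.5 CPM in KO against 11.6 CPM in WT, 3.41-fold, and 4.02-fold (1.18 to 21.2) without them. Hist1h2ae had 101 CPM in KO against 149 CPM in WT, a ratio of 0.680. For Hist1h2ae 28 of 77 WT UMIs came from 1 cell, and the ratio without the top cells was 0.895 (0.611 to 1.32).

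Outside the cycle Hist1h1c was lower in KO than in WT cells of most classes, with its lowest ratios in dendritic cells and monocytes. It had 14.7 CPM in KO against 46.8 CPM in WT non-cycling cDC1s, on 23 and 69 UMIs, a ratio of 0.315 (0.188 to 0.512); no cell held more than 2 of the KO or 11 of the WT UMIs. Type 2 dendritic cells had 20.1 CPM in KO against 71.3 CPM in WT, 0.282 (0.141 to 0.533), and monocytes 14.3 CPM in KO against 44.2 CPM in WT, 0.324 (0.139 to 0.759). In non-cycling CD8 T cells it had 22.4 CPM in KO against 34.1 CPM in WT, 0.658, and in CD4 T cells 20.5 CPM in KO against 30.9 CPM in WT, 0.665. It was lower in KO in 7 of the 8 classes with at least 10 of its UMIs, all but the macrophages, at 43.8 CPM in KO against 29.0 CPM in WT on 9 and 5 UMIs. The interval lay below 1 in 3 of the 8. Hist1h1e went no common way, with a ratio of 0.997 over all non-cycling cells against 0.488 (0.394 to 0.601) for Hist1h1c. Hist1h4d was lower in KO in 5 of 6 classes, with an interval below 1 in 0 of them. The summed histone level of all non-cycling cells was lower in KO too, at 0.815 (0.755 to 0.881) without the top cell of each library. The H2B genes Hist1h2bc, at 0.379 (0.201 to 0.686), and Hist1h2be, at 0.356 (0.144 to 0.804), were also lower over all KO non-cycling cells, on far fewer UMIs. With 1 library per group, the genotype and anything else that differed between the libraries cannot be told apart.

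Genes that work on histones or histone mRNA were read beside the members in the same T cells. There 8.99% of all genes in KO and 6.63% in WT were at least 2-fold higher in cycling cells. Of 9 replacement histone genes tested, 3 were at least 2-fold higher in cycling cells in each library: H2afz at 2.91 in KO and 2.55 in WT, H2afx at 5.14 and 4.21, and Cenpa, the centromere H3, at 3.40 and 3.60. The H3.3 genes stood near 1, H3f3b at 1.12 in KO and 1.078 in WT and H3f3a at 0.999 and 1.15. Of 10 genes of histone mRNA processing, 1 was 2-fold higher in KO, near the share of all genes, and 3 in WT. Slbp, the stem-loop binding protein gene, was at 2.78 in KO and 2.03 in WT. Of 15 histone chaperone genes, 9 were higher in KO and 8 in WT, among them Asf1b at 20.6 in KO and 13.8 in WT and Chaf1a, a subunit of the chromatin assembly factor behind the replication fork, at 17.0 and 25.6; Daxx, an H3.3 chaperone gene, was lower at 0.468 in KO and had 0.743 in WT. All 25 S-list genes tested in KO and 23 in WT were 2-fold higher, as were 23 G2/M-list genes in each, but these lists go with the gate itself and are no separate support.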

How the data were processed

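Gene by barcode tables of raw UMI counts from 2 droplet libraries, 1 per group, were used as the authors deposited them. Per the submitters' processing notes Cell Ranger 1.3 and mm10 were used, but software version 3.0.2 stands in the matrix headers; annotation release, strand setting and read end are not given in the sources used here. Barcodes under 500 UMIs, under 300 genes or over 10% mitochondrial UMIs were left out (133 in KO and 132 in WT). Classes were gated by marker UMIs; 1 CD8 T cell subset is not reported here. Scrublet (scanpy 1.11.5, expected rate 6%) called 2 KO and 8 WT doublets, which were kept. Levels are summed UMIs as CPM with exact Poisson intervals; ratios have exact conditional binomial intervals and shares Clopper-Pearson intervals, all at 95%. A count of 0 was bounded at 3 counts. Folds of at least 2 (cycling over other) and 1.5 (KO over WT) were counted over genes with at least 30 UMIs. The 2-fold rule was checked on simulated counts, without the spread between cells and without that bound. The 1.5-fold rule was not checked so. Thinning drew 2000 UMIs per cell (seed 7). Members with at least 50 UMIs, 39 in all, were eligible to be named, up to the 30 with most UMIs; others named were chosen after their values were seen. The members and gene lists were chosen with earlier results of these data known. Other choices tried were the cycling gate, gate strictness, depth filters, weighting and leaving out single cells, doublets or members. Python 3.11.15, NumPy 2.4.6, SciPy 1.17.1, pandas 2.3.3 and matplotlib 3.10.9 were used.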

Additional observations from a re-analysis of the deposited data

Results flagged for a closer look

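In cycling CD8 T cells the KO over WT ratio of summed histone level was 1.02 (0.951 to 1.10), and larger with cells weighted equally. Described here are 4 classes whose ratio in cycling cells had a counting interval apart from 1. They are not the only such classes. T cells with both co-receptors stood at 1.59 (1.38 to 1.84) without the top cells, in 9 KO and 6 WT cycling cells. The difference between classes was not tested, since each group is 1 library. In cycling CD4 T cells the ratio was 0.808, and 0.846 (0.780 to 0.918) without the top cell of each library. In cycling cDC1s, under the wider gate, it was 1.15, and 1.27 (1.13 to 1.42) without the top cells. In cycling Foxp3-positive CD4 T cells it was 1.28, from 2778 CPM in 15 KO cells against 2167 CPM in 22 WT cells, and 0.984 (0.855 to 1.13) without the top cells, the KO one holding 332 histone UMIs. In cycling conventional CD4 T cells it was 0.443, from 2276 CPM in 28 KO cells against 5140 CPM in 12 WT cells, and 0.619 (0.545 to 0.704) without the top cells, the WT one holding 304 histone UMIs. Markers of antigen-presenting cells summed to 6458 CPM in KO against 13372 CPM in WT cycling Foxp3-positive cells, and to 1440 CPM in KO against 113 CPM in WT cycling conventional CD4 T cells. Their part in these ratios was not tested.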

How the results depend on the processing

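No paired analysis was possible because each group is 1 library. Over 47 results and 221 alternatives, 133 stayed within their counting interval (counts: within 1.5 times), 84 moved and 4 turned round; the causes were not tested. All 80 alternatives of the cycling over other ratios kept cycling cells higher, by 2.88 to 36.9 times. Values below are log2 ratios unless they are counts or percentages, and cDC1s are those of the first gate, with few cells.

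Cycling over other cells: a gate of at least 2 Mki67 plus Top2a UMIs gave 3.60 (KO) and 3.68 (WT) in all T cells, 3.63 in WT CD8 T cells, 3.94 (KO) and 4.16 (WT) in CD4 T cells and 4.65 in WT cDC1s. The mean of per-cell CPM gave 2.84 and 2.88 in KO and WT T cells, 2.70 and 2.52 in CD8 and 2.87 and 2.81 in CD4 T cells. UMIs per cell gave 5.08 and 4.80, 4.66 and 4.71, and 5.20 and 4.83 in the same order, and 1.62 in WT cDC1s. Thinning to 2000 UMIs came before the cycling gate here, so fewer cells passed it, and gave 3.17 and 2.94 in all T cells, 2.46 and 2.38 in CD8, 3.26 in WT CD4 T cells, and 3.04 and 4.56 in cDC1s. Without Hist1h2ap it was 3.09 and 3.09, 2.80 and 2.82, and 3.19 and 3.25. Without the top cells it was 3.28 in WT CD4 T cells and 1.53 in WT cDC1s, and without T cells rich in other cell types' markers (chosen after seeing the data) 3.84 in WT CD4 T cells.

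KO over WT: in all CD8 T cells per-cell CPM gave 0.67, UMIs per cell 0.93 and thinning 0.67; in cycling CD8 T cells these gave 0.39, 0.46 and 0.66, and 0.14 without Hist1h2ap; in other CD8 T cells thinning gave 0.58. With the gate left on unthinned counts, thinned histone UMIs per cell were 3.37 (KO) and 2.57 (WT) in cycling and 0.495 and 0.433 in other CD8 T cells, and 3.49 and 3.64 in cycling and 0.459 and 0.537 in other CD4 T cells. All CD4 T cells had 0.36 per cell and -0.039 without marker-rich cells. Cycling CD4 T cells had -0.45 at the stricter gate, -0.073 by per-cell CPM, -0.56 without marker-rich cells, and turned to 0.15 per cell and 0.18 thinned before the gate. All cDC1s had 0.068 by per-cell CPM, 0.13 thinned and 0.33 under the wider gate chosen after seeing the data; cycling cDC1s had -1.59 at the stricter gate, -0.77 by per-cell CPM, 1.75 per cell, 1.27 without the top cells and -1.23 thinned.

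S over G2/M lean: thinning gave -0.95 (KO) and -1.29 (WT) in all T cells and -0.91 in KO CD8 T cells, and turned WT CD8 T cells to 0.051; leaving out the top cells gave -0.70 in KO T cells and -0.36 in KO CD8 T cells, and turned WT CD8 T cells to 1.62.

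Counting members with at least 1 UMI, those 2-fold higher in cycling cells were 49 (KO) and 46 (WT) in all T cells, 36 and 36 in CD8 T cells with 8 and 6 lower, and 37 and 43 in CD4 T cells with 2 lower in KO. Between genotypes 22 were higher and 13 lower in CD8 T cells, 13 and 16 in cycling CD8 T cells, and 8 and 27 in cycling CD4 T cells. A group without any UMI of a member was bounded at 3 counts, which is more than a group with 1 UMI of it. At this limit members with very few UMIs can therefore be counted against the direction seen. The higher and lower counts of this paragraph thus give no direction for such members, and the share of all genes at this limit is not given. Unthinned shares of cells with a histone UMI were 92.3% (KO) and 72.1% (WT) in cycling and 58.8% and 52.7% in other CD8 T cells, and 83.7% and 79.4% in cycling and 57.4% and 54.9% in other CD4 T cells. Depth limits single members: 30 of 69 had under 50 UMIs over both libraries.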

Other observations

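Cells that met no gate and were not cycling had a summed histone level of 251 CPM in KO against 802 CPM in WT, the WT value resting on 92 UMIs in 51 cells, of which 2 cells gave 42. Without the cell of most histone UMIs in each group it was 247 CPM in KO against 527 CPM in WT. Non-cycling T cells with at least 3 UMIs of the S list had 234 CPM in KO and 243 CPM in WT, against 230 CPM in KO and 239 CPM in WT T cells with fewer, but 1.87 histone UMIs per cell in KO and 1.62 in WT against 0.845 in KO and 0.925 in WT. In cDC1s the levels were 177 CPM in KO and 211 CPM in WT, against 147 CPM in KO and 176 CPM in WT cells with fewer. Of the 8 members without a UMI, 6 share more than 50% of the 60-base words of their last 300 bases with other annotated transcripts. Over all members, 17 of the 35 with under 50% unique words had under 30 UMIs, against 7 of the 32 others.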
